A study of Rattus norvegicus with 5 samples.

Results

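The metabotropic glutamate receptors examined here are 6 listed genes, Grm2, Grm3, Grm4, Grm5, Grm7 and Grm8, of 32285 genes counted in each library. They were found by the gene symbol in the authors' deposited comparison and then by the Ensembl identifier in the count tables. That search found 5 of the 6, and all 5 passed the filter on low counts. Grm4 has no entry under its symbol in that comparison and was not analysed here. The libraries come from neurons cut from the rat striatum by laser capture, each chosen because it carried a fluorescent tracer taken up where its axon ends. Striatomesencephalic neurons, whose axons reach the midbrain, gave 2 libraries, and striatopallidal neurons, whose axons reach the pallidum, gave 3. The labels name the striatum as the source of all 5 libraries and give no strain, sex, age or treatment beyond the tracer, and neither the number of cells per library nor the number of animals is given in the sources used here. The labels do not tie libraries to separate animals, so p-values measure only the spread between these libraries.

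Metabotropic glutamate receptors are G protein-coupled receptors that answer glutamate more slowly than ion channel receptors and adjust how strongly synapses transmit. Group I receptors, here Grm5, couple to Gq and phospholipase C and sit mostly around the postsynaptic site. Group II receptors, Grm2 and Grm3, and group III receptors, here Grm7 and Grm8, couple to Gi/o, lower cyclic AMP and often act as brakes on transmitter release. In the striatum, glutamate arrives from cortex and thalamus onto spiny projection neurons of both the direct (striatomesencephalic) and the indirect (striatopallidal) pathway.

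Library totals ran from 20845178 to 24805062 counts, and a floor of 3 counts corresponded to 0.121 to 0.144 CPM, the count per 1000000 counts of the library. The labels name no molecular identifiers, so intervals and the floor cover counting error only. The 9 direct pathway markers summed to 5014 and 5384 CPM in striatomesencephalic neurons, against 2726, 2720 and 1810 CPM in striatopallidal neurons. The 7 matched indirect pathway markers of 9 summed to 1892 and 2021 CPM in striatomesencephalic neurons, against 6442, 6289 and 6950 CPM in striatopallidal neurons. Both sums lie on the side that the labels give, and neither neuron type lacked the other's markers. Striatopallidal replicate 2 stood apart in its scaling, with a TMM normalization factor (which corrects for uneven make-up of libraries) of 0.774 against 1.02 to 1.14 in the other 4 libraries.

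Of the 5 receptor genes, Grm8 was the one whose CPM from library totals did not overlap between the neuron types. It was lower in striatomesencephalic neurons. Grm3, Grm5 and Grm7 were present at 296 CPM or more in every library of both types, with estimated fold changes of at most 1.19-fold in either direction. Grm2 was at 11.8 CPM or less in every library and overlapped between the types. No receptor gene passed adjustment over all 13811 genes tested by edgeR's quasi-likelihood test, in which 0% of all genes passed. Grm8 had an unadjusted p under 0.05, so 1 of 5 receptor genes did, beside 6.07% of all genes tested. Its groups did not overlap in CPM, which held for 1 of 5 receptor genes and for 21.1% of all genes. With 5 genes, neither share is a result about the family. In pooled captures such as these, fewer cells carrying a transcript and less of it per cell cannot be told apart.

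**Figure D1:**
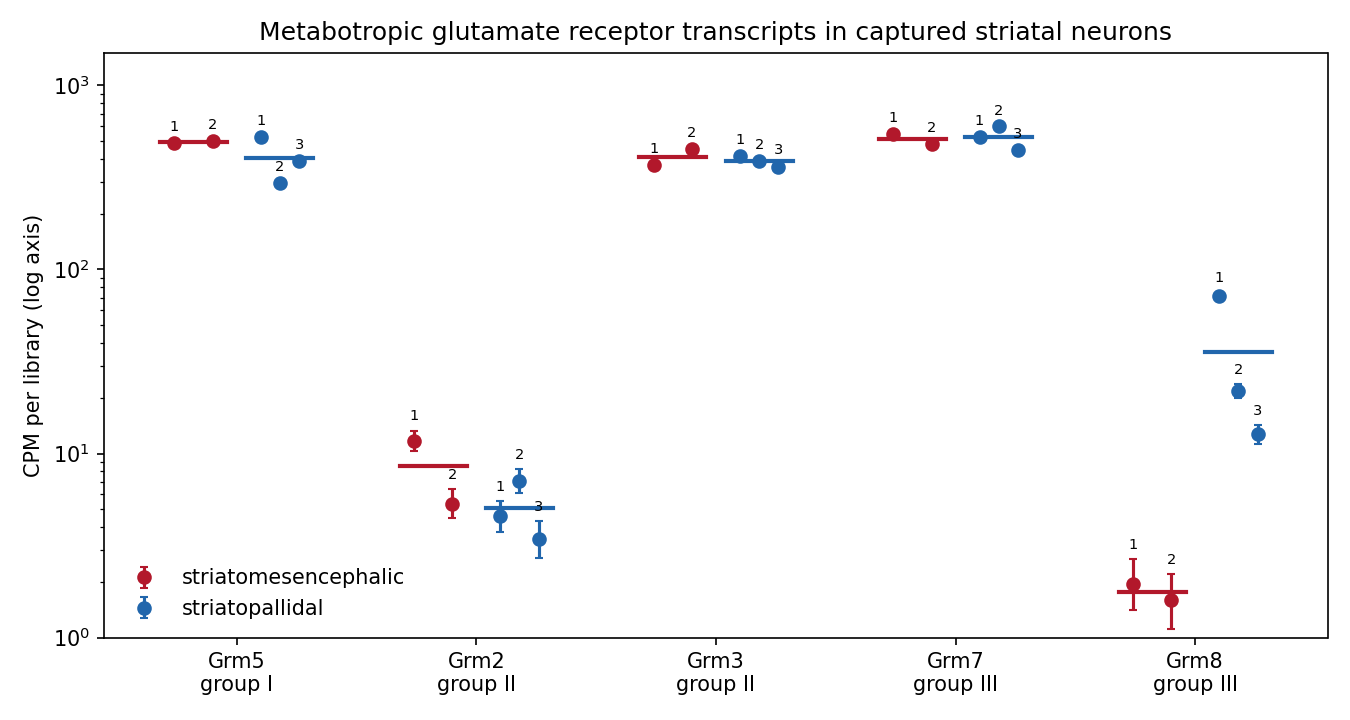
CPM of each receptor gene in each library on a log axis, with striatomesencephalic libraries left of striatopallidal ones. Points are libraries, numbered by replicate, bars across them are group means, and error bars are 95% Poisson intervals for counting error. Grm8 is at 1.97 and 1.59 CPM in striatomesencephalic libraries and at 12.7 CPM or more in striatopallidal ones, while the other genes overlap. Heights of different genes are not comparable, since counts were not divided by transcript length.

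Grm5 (ENSRNOG00000016429) encodes the group I receptor that spiny projection neurons carry and that activates phospholipase C. It had 489 and 497 CPM in striatomesencephalic replicates 1 and 2, against 524, 296 and 388 CPM in striatopallidal replicates 1, 2 and 3. The striatomesencephalic values lay close together, 1.02-fold apart, and inside the range of the striatopallidal values, which spread 1.77-fold. Means were 493 ± 6.23 CPM in striatomesencephalic neurons (SD, n = 2) and 403 ± 115 CPM in striatopallidal neurons (SD, n = 3). The log2 fold change was 0.25 ± 0.31 (SE), with a 95% interval from -0.49 to 0.99 (edgeR, adjusted p = 0.916). That interval spans ratios of striatomesencephalic to striatopallidal neurons from 0.711 to 1.98, and a difference within it could not be resolved with these libraries. The low value of striatopallidal replicate 2 was 382 CPM after TMM scaling, close to replicate 3 at 365 CPM and below replicate 1 at 461 CPM. After that scaling the striatomesencephalic libraries, at 468 and 489 CPM, lay above all striatopallidal ones. The overlap of Grm5 thus held for CPM from library totals and not after TMM scaling.

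Grm2 (ENSRNOG00000013171) encodes a group II receptor that is known mainly from axon terminals, where it limits glutamate release. It had 245 and 121 counts, or 11.8 and 5.35 CPM, in striatomesencephalic neurons, against 109, 176 and 77 counts, or 4.57, 7.10 and 3.44 CPM, in striatopallidal neurons. All 5 values were above the detection floor, and striatopallidal replicate 2 fell between the striatomesencephalic values. The log2 fold change was 0.59 ± 0.96 (SE), with a 95% interval from -1.68 to 2.86 (edgeR, adjusted p = 0.942). Striatomesencephalic replicate 1 set the sign: without it the log2 fold change was -0.055. Striatopallidal replicate 2 also weighed on the value, which was 1.18 without that library.

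Grm3 (ENSRNOG00000005519) encodes the other group II receptor, which neurons and astrocytes both express. It had 369.7 and 451 CPM in striatomesencephalic neurons, against 412, 389 and 362 CPM in striatopallidal neurons. The highest and lowest of the 5 libraries differed by 1.25-fold in CPM, and by 1.48-fold after TMM scaling. The log2 fold change was -0.013 ± 0.35 (SE), with a 95% interval from -0.84 to 0.82 (edgeR, adjusted p = 0.999), and its sign turned with the scaling (0.081 with library totals alone). Astrocyte markers, of which all 11 were matched and none was at 0 counts, summed to 1904 and 1656 CPM in striatomesencephalic neurons, against 2004, 1318 and 1673 CPM in striatopallidal neurons. These sums overlapped between the types as Grm3 did, and how much of the Grm3 signal came from astrocyte RNA was not tested. Grm2 made up 3.08% and 1.17% of the summed Grm2 and Grm3 counts in striatomesencephalic neurons, against 1.10%, 1.79% and 0.940% in striatopallidal neurons.

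Grm7 (ENSRNOG00000005662) encodes a group III receptor of the presynaptic active zone with low affinity for glutamate. It had 543 and 480 CPM in striatomesencephalic neurons, against 526, 599 and 444 CPM in striatopallidal neurons. The groups overlapped, with the highest and the lowest value both in striatopallidal neurons. The log2 fold change was -0.16 ± 0.38 (SE), with a 95% interval from -1.05 to 0.74 (edgeR, adjusted p = 0.963). It was 0.16 without striatopallidal replicate 2, whose Grm7 level was 775 CPM after TMM scaling against 418 to 519 CPM in the other libraries.

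Grm8 (ENSRNOG00000021468) encodes a group III receptor found mostly on presynaptic endings, with high affinity for glutamate. It had 41 and 36 counts in striatomesencephalic replicates 1 and 2, against 1711, 542 and 285 counts in striatopallidal replicates 1, 2 and 3. In CPM these were 1.97 and 1.59 in striatomesencephalic neurons, against 71.8, 21.9 and 12.7 in striatopallidal neurons. The lowest striatopallidal library stood 6.46-fold above the highest striatomesencephalic library, a gap slightly wider than the 5.64-fold spread within striatopallidal neurons. The 95% Poisson intervals of the striatomesencephalic libraries ran from 1.41 to 2.67 and from 1.11 to 2.20 CPM, above the detection floor, so the transcript was detected there too.

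The log2 fold change of Grm8 was -4.32 ± 1.05 (SE), with a 95% interval from -6.79 to -1.85 (edgeR, adjusted p = 0.779). As a ratio, striatomesencephalic neurons had 0.0502 of the striatopallidal level, with an interval from 0.00906 to 0.278. Among 13811 genes it ranked 49 by p-value, and genes lower in striatomesencephalic libraries at an unadjusted p under 0.05 made up 3.14% of those tested. DESeq2 called it, with an adjusted p of 0.000316, beside 219 genes in all or 1.59%. The exact test of edgeR, which called 45 genes or 0.326%, gave it an adjusted p of 0.0738, and limma voom 0.978. Over all alternatives the adjusted p ran from 0.000316 to 1 while the log2 fold change kept its sign, between -4.73 and -3.54. Striatopallidal replicate 1 held the highest value, and without it the log2 fold change was -3.54 (edgeR, adjusted p = 0.821). In the authors' deposited table the log2 fold change of Grm8, there striatopallidal over striatomesencephalic, was 3.90, with a p-value of 0.0499 and an adjusted p of 0.927.

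**Figure D2:**
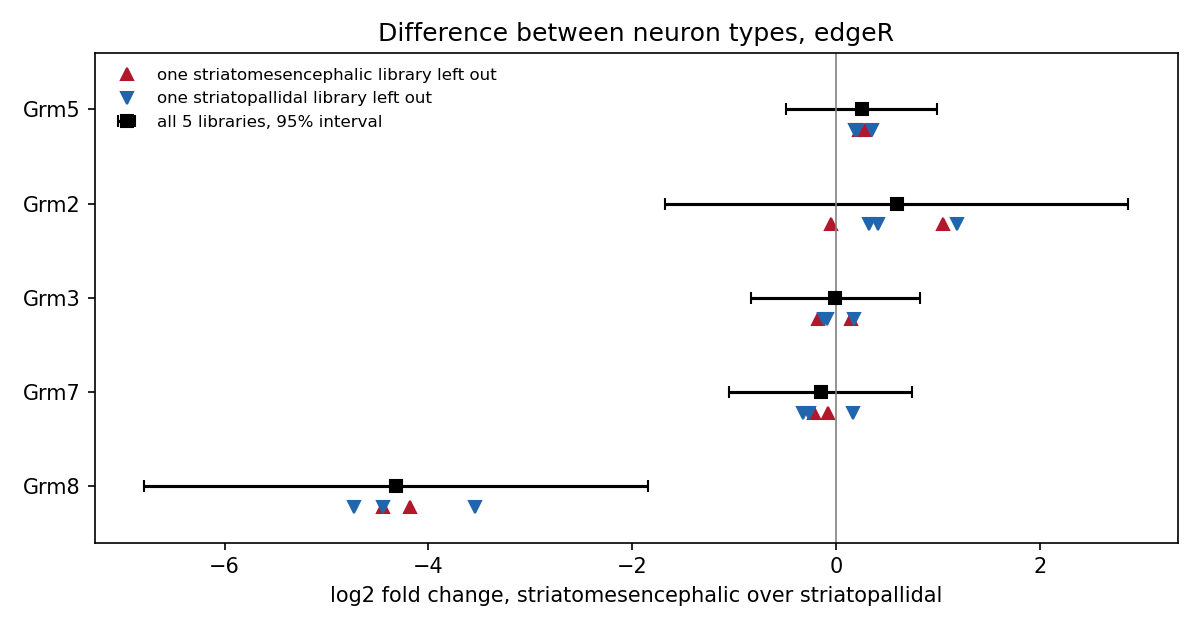
Log2 fold change of each receptor gene, striatomesencephalic over striatopallidal. Squares with bars are the estimates from all 5 libraries with 95% intervals, and triangles under them are estimates with 1 library left out. The interval of Grm8 runs from -6.79 to -1.85 and the intervals of the other 4 genes include 0. Triangles of Grm2, Grm3 and Grm7 lie on both sides of 0.

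The ratio of Grm8 to Grm7 within a library does not depend on how libraries are scaled. Grm8 made up 0.361% and 0.331% of the summed Grm7 and Grm8 counts in striatomesencephalic libraries, with exact 95% binomial intervals of 0.259% to 0.490% and 0.232% to 0.458%. In striatopallidal libraries it made up 12%, 3.52% and 2.78%, with intervals of 11.5% to 12.5%, 3.23% to 3.82% and 2.47% to 3.12%. The shares did not overlap between the neuron types, and within striatopallidal neurons replicate 1 stood above the other libraries by more than counting error.

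Summed by receptor group, levels overlapped between the neuron types. Group III (Grm7 and Grm8) summed to 544 and 481 CPM in striatomesencephalic neurons, against 598, 621 and 457 CPM in striatopallidal neurons. Group II (Grm2 and Grm3) summed to 381 and 456 CPM in striatomesencephalic neurons, against 416, 396 and 366 CPM in striatopallidal neurons. The differences of mean log2 sums, striatomesencephalic minus striatopallidal, were 0.089 for group II and -0.11 for group III. The group II value was -0.040 without striatomesencephalic replicate 2. Genes of a group were also weighted equally, as the mean of their own log2 of CPM plus 0.5. The differences were then 0.37 for group II and -1.82 for group III. Group I, here Grm5 alone, took 34.5% and 34.7% of the 5 genes' counts in striatomesencephalic neurons, against 34.1%, 22.5% and 32.1% in striatopallidal neurons. Group III took 38.5% and 33.5% in striatomesencephalic neurons, against 38.9%, 47.3% and 37.8% in striatopallidal neurons. Striatopallidal replicate 2 thus had the lowest group I share and the highest group III share, while replicates 1 and 3 of its group were near the striatomesencephalic libraries. All 5 genes together came to 1415 and 1435 CPM in striatomesencephalic neurons, against 1539, 1313 and 1211 CPM in striatopallidal neurons.

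**Figure D3:**
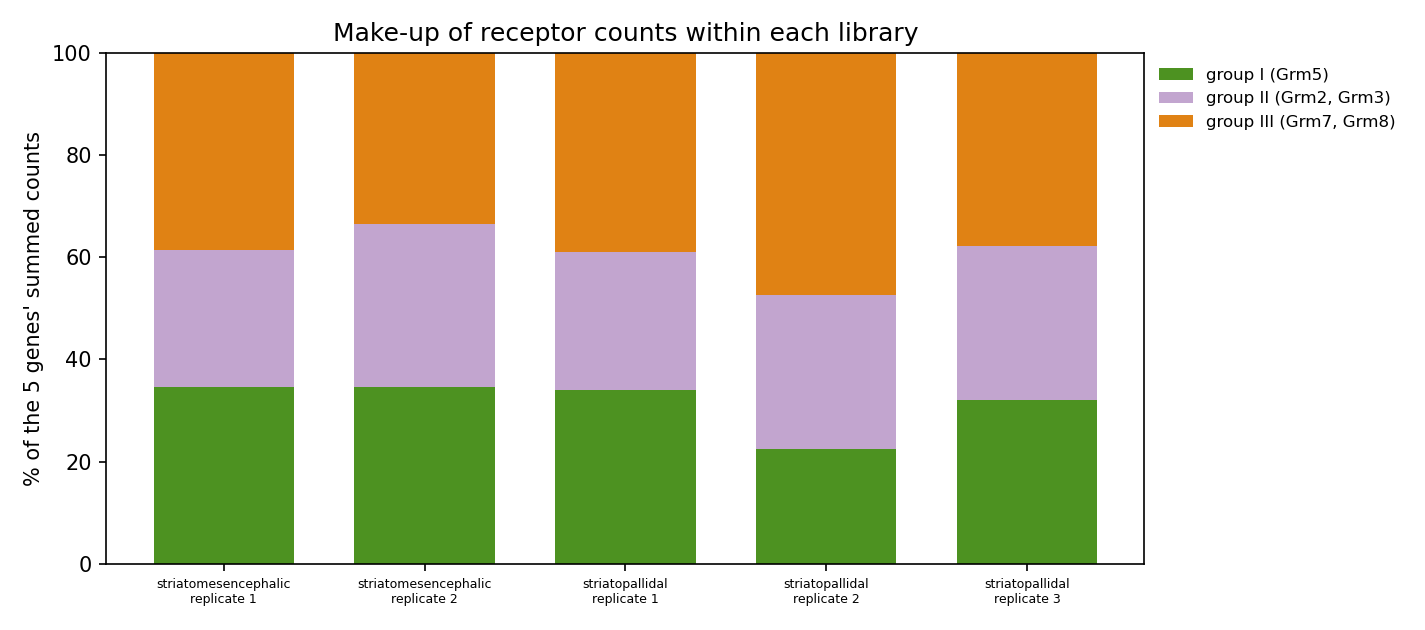
Share of the 5 receptor genes' summed counts that each receptor group took in each library, in percent, with striatomesencephalic libraries at the left. Shares are of counts, not corrected for transcript length. Striatopallidal replicate 2 differs from the other 4 libraries, with 22.5% group I and 47.3% group III.

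RNA of other cells was set beside Grm8. Striatal interneuron markers, 6 of 10 matched and none of them at 0, summed to 83.6 and 109 CPM in striatomesencephalic neurons, against 127, 157 and 166 CPM in striatopallidal neurons. That sum lay in the direction of Grm8 without overlap, although it was lowest in replicate 1 among striatopallidal libraries, where Grm8 was highest. Chat, the acetylcholine-synthesizing enzyme of cholinergic interneurons, had 0.672 and 1.28 CPM in striatomesencephalic neurons, against 2.10, 19.2 and 4.33 CPM in striatopallidal neurons. Slc5a7, the choline transporter of the same interneurons, lay the other way, at 16.0 and 8.0 CPM in striatomesencephalic neurons, against 4.32, 2.22 and 1.87 CPM in striatopallidal neurons. Calb2, of another interneuron class, also lay against the direction of Grm8, with a log2 fold change of 4.42. It had 2.45 and 12.2 CPM in striatomesencephalic neurons, against 0.503, 0.363 and 0.0892 CPM in striatopallidal neurons, the last below the detection floor. Neither Slc5a7 nor Calb2 overlapped between the types. Kit and Sst lay in the direction of Grm8 without overlap, with log2 fold changes of -1.42 and -1.71, and Nos1 overlapped. The astrocyte filament gene Gfap also had the order of Grm8 among striatopallidal libraries, at 11.5 and 3.85 CPM in striatomesencephalic neurons, against 243, 175 and 87.7 CPM in striatopallidal replicates 1, 2 and 3. Microglia markers, 4 of 8 matched, summed to 32.9 and 18.2 CPM in striatomesencephalic neurons, against 89.7, 30.0 and 29.6 CPM in striatopallidal neurons. Replicate 1 was highest, but the sums overlapped between the types. Among striatopallidal libraries C1qa, C1qb and Csf1r were highest in replicate 1. Tmem119 was lowest there, at 2.22 CPM against 12.6 and 10.8 CPM in replicates 2 and 3. Summed markers of oligodendrocytes (10 of 10 matched), their precursors (4 of 7) and vascular cells (5 of 7) overlapped between the types. The 9 general markers of spiny projection neurons summed to 13159 and 18344 CPM in striatomesencephalic neurons, against 21061, 18412 and 20682 CPM in striatopallidal neurons, with no overlap and in the direction of Grm8. Of 7 markers of cortical glutamatergic neurons 1 was matched, Rorb, at 129 and 55.4 CPM in striatomesencephalic neurons, against 22.4, 13.7 and 20.3 CPM in striatopallidal neurons, with no overlap and against the direction of Grm8. The part of these differences in that of Grm8 was not tested. Summed indirect pathway markers differed by at most 1.105-fold among striatopallidal libraries, and Grm8 spread 5.64-fold there. Single markers varied more than the sum of 7. Penk had 2242, 1260 and 2395 CPM in striatopallidal replicates 1, 2 and 3. Adora2a, highest where Penk was lowest, had 2558, 3676 and 2814 CPM. The spread of a sum and that of a single gene are thus unlike measures, and the source of the Grm8 spread was not tested.

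**Figure D4:**
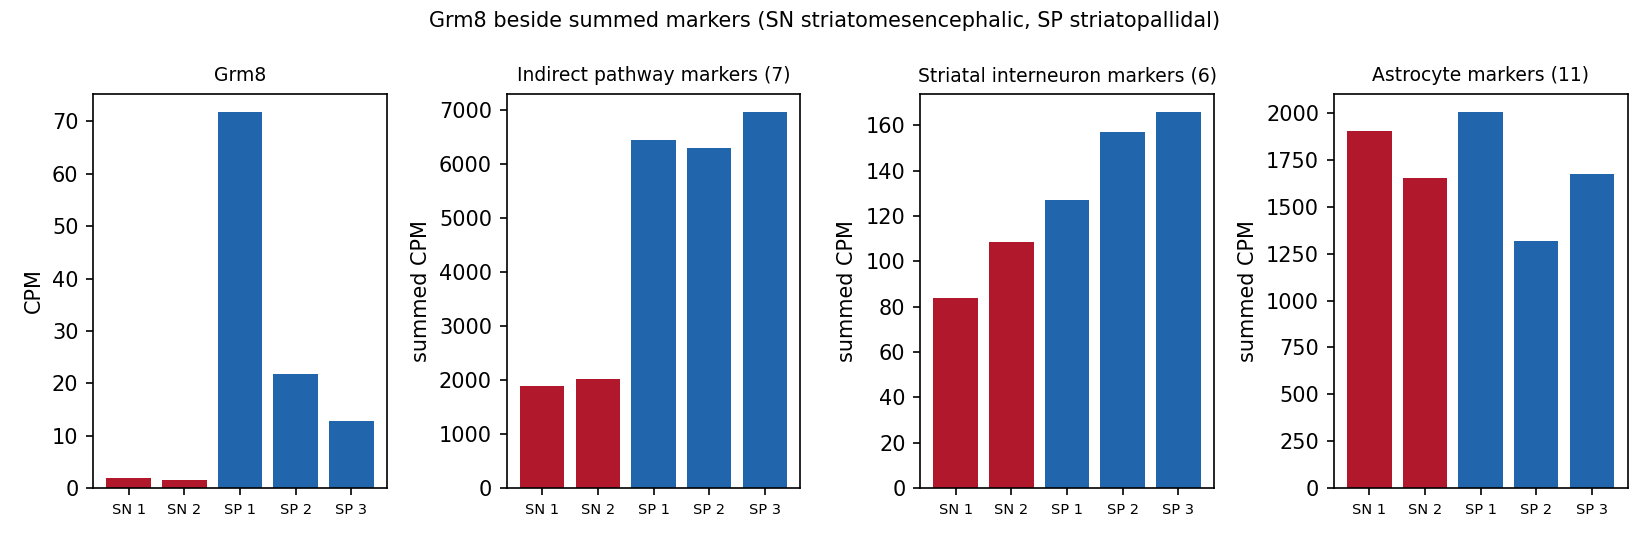
Grm8 in CPM and summed CPM of 3 marker lists, by library, with striatomesencephalic (SN) libraries left of striatopallidal (SP) ones and each axis starting at 0. Indirect pathway sums are 6289 to 6950 CPM in all striatopallidal libraries, where single markers vary more than their sum, and Grm8 is 71.8, 21.9 and 12.7 CPM there. Astrocyte sums overlap between the types.

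Genes that act with these receptors were examined as 4 lists, and none of their members passed the adjustment over the 13811 genes tested by edgeR. Of 9 tested genes of group I transduction, 2 were higher and 7 lower in striatomesencephalic neurons, with a median log2 fold change of -0.23 beside -0.059 over all genes. Plcb4, a phospholipase C isoform, was the only one with an unadjusted p under 0.05, or 1 of 9 beside 6.07% of all genes, at 4.27 and 2.79 CPM in striatomesencephalic neurons, against 15.9, 22.6 and 66.7 CPM in striatopallidal neurons. Its log2 fold change was -3.37 ± 0.96 (SE; edgeR, adjusted p = 0.779). Plcb1, another phospholipase C, had a log2 fold change of -0.64.

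Of 10 tested genes of Gi/o transduction, which serve groups II and III, 3 were higher and 7 lower in striatomesencephalic neurons, with a median of -0.33. Kcnj3, an inward rectifier potassium channel subunit opened by G proteins, had 23.9 and 19.7 CPM in striatomesencephalic neurons, against 79.1, 130 and 43.3 CPM in striatopallidal neurons. Its log2 fold change was -2.14 ± 0.75 (SE; edgeR, adjusted p = 0.779), the only one of this list with an unadjusted p under 0.05, or 1 of 10 beside the same 6.07%. Gnai2, a Gi alpha subunit, had a log2 fold change of 0.99 and Adcy1, an adenylyl cyclase, -2.37. Among 15 tested receptor partners, which include Homer and Shank scaffolds, 6 were higher and 9 lower, with a median of -0.12 and none at an unadjusted p under 0.05. Grasp, a scaffold that binds group I receptors, had -1.63, Pick1, which binds the tail of the Grm7 receptor, 1.84, and Prkca, a protein kinase C, 1.18. Of 6 tested genes of glutamate release and uptake, 4 were higher and 2 lower, with a median of 0.098. The glutamate transporter gene Slc1a2 had a log2 fold change of 0.66 and the exchanger gene Slc7a11 0.58.

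**Figure D5:**
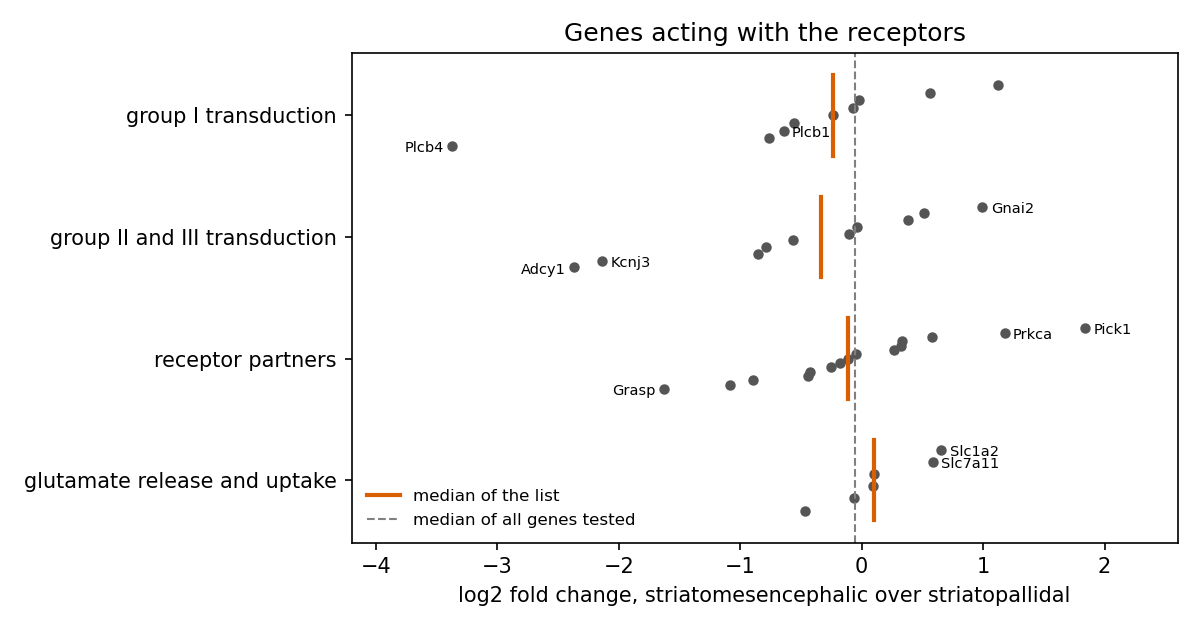
Log2 fold change, striatomesencephalic over striatopallidal, of every tested gene in the 4 lists of genes acting with the receptors. Points are genes, orange bars are list medians, the dashed line is the median of all genes, and the genes described in the text are named. Plcb4, at -3.37, lies farthest from 0.

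These splits were also counted without striatopallidal replicate 2, the only library left out for the lists. Without it, 4 genes of group I transduction were higher and 5 lower in striatomesencephalic neurons, with a median of -0.027. The counts were 5 higher and 5 lower for Gi/o transduction (median 0.029), 8 higher and 7 lower for receptor partners (0.0086) and 5 higher and 1 lower for glutamate release and uptake (0.094), beside a median of 0.045 over all genes. This check was chosen after the data were seen.

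Profiles most like each receptor gene were found by the root mean square difference over the 5 libraries. It was taken on log2 of TMM-scaled CPM plus 0.5, each gene centred on its own mean. Candidates were 11918 tested genes with a symbol and a mean count of at least 10. For Grm8 the closest were Lysmd1, at a difference of 0.395, and Zscan12, at 0.50. Matches were closer for the other receptor genes, all of which varied less than Grm8 over the libraries. For Grm7 they were Dnaja1 (0.044) and Rab15 (0.045), for Grm3 LOC680227 (0.0525) and Tef (0.061), for Grm5 Tmeff1 (0.058) and Birc6 (0.062), and for Grm2 Hfe2 (0.067) and Cgref1 (0.073). These distances rest on 5 libraries and describe likeness in them only. The spread that edgeR estimated for each receptor gene, as a biological coefficient of variation, was 0.400 for Grm3, 0.385 for Grm5 and 0.415 for Grm7, each below the trend for genes of like abundance at 0.498, 0.497 and 0.493. It was 0.710 for Grm8 and 0.805 for Grm2, beside trend values of 0.760 and 0.961.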

How the data were processed

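Polyadenylated RNA of captured neurons was amplified with a single-cell kit before sequencing, per the labels' protocols. The submitters' processing notes name build Rnor_6.0 and the tools TopHat2, HTSeq, limma and edgeR, without versions or roles, and no strand setting was found in the labels, so reads of overlapping antisense genes cannot be told apart. The authors deposited read counts per Ensembl gene for each library, which were the input of every test here. The comparison that the authors deposited holds, per gene, its log2 fold change and log2 level, p-values and test scores, and pairs identifiers with symbols. Its sign was opposite to the one used here for 88.4% of 11919 shared genes.

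Tests were run on counts with edgeR 4.0.16 under R 4.3.3 (filterByExpr, TMM, glmQLFit, glmQLFTest, all 5 libraries, cell type as the only term), with Benjamini-Hochberg adjustment over all genes tested and a threshold of 0.05. Fold changes are log2, striatomesencephalic over striatopallidal, and per-library values are CPM from library totals unless TMM scaling is named. All alternatives were run: DESeq2 1.42.0, the exact test of edgeR, limma 3.58.1 (voom), other scalings and filters, a replicate block and each library left out. An exact permutation test of 2 against 3 libraries cannot give a p below 0.1, so group sums are given without one. The fitting steps were tested on simulated counts. Receptor genes and lists were chosen with earlier results of these data known. All receptor genes are named, the 3 genes of smallest p in each list of acting genes, and the 2 genes of closest profile; some genes that this rule takes are left out. Other genes were named after their values were seen. No transcript lengths were used, so shares and sums over genes are of counts, and levels of different genes are not comparable.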

Additional observations from a re-analysis of the deposited data

How the results depend on the processing

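In edgeR's quasi-likelihood test 0 of 13811 genes passed and 839 had an unadjusted p under 0.05. DESeq2 called 219 genes and the exact test of edgeR 45, while limma voom called 0. Grm8 passed with DESeq2 alone (-4.32 on the log2 scale). Grm3 had a positive value with limma voom (0.019) and with library totals alone (0.081); the cause was not tested. With 1 library left out, log2 fold changes ran from -4.73 to -3.54 for Grm8, 0.18 to 0.35 for Grm5, -0.055 to 1.18 for Grm2, -0.18 to 0.17 for Grm3 and -0.32 to 0.16 for Grm7, and the log2 difference of group sums from -0.040 to 0.22 for group II and -0.25 to -0.024 for group III. Where 1 striatomesencephalic library remained, it was assumed to vary like the other group. The labels give groups the same replicate numbers but no shared animal or day, and deviations of same-numbered libraries had correlations of -0.0235 and -0.0362. With the replicate block, 0 genes passed and 465 had an unadjusted p under 0.05. Log2 fold changes were then -4.62 for Grm8, 0.19 for Grm5, 0.34 for Grm2, -0.11 for Grm3 and -0.28 for Grm7. Only striatopallidal neurons had a replicate 3, so that library did not inform the fold changes of this fit. Counts were lowest for Grm2, with 77 to 245 a library, and for Grm8 in striatomesencephalic neurons, with 41 and 36. For Grm2 the 95% Poisson intervals of the striatomesencephalic libraries were 10.3 to 13.3 and 4.44 to 6.39 CPM. These did not overlap, so the libraries differed by more than counting error.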
